A study of Mus musculus with 18 samples.

Results

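The genes described here encode the proteins of the cytosolic ribosome. They were taken by name from the deposited gene table (Rpsa, Rpl36al, Rpl22l1, and symbols made of Rpl, Rps or Rplp with a number and at most one closing a, x or l), which gave 82 of the 21923 genes in the table. Of these, 80 had enough reads to be compared between genotypes, 49 coding for large subunit (Rpl and Rplp) and 31 for small subunit (Rps) proteins. The rule used gene names alone.

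The study measured mRNA bound to ribosomes of cortical astrocytes by translating ribosome affinity purification (TRAP), in which a tagged ribosomal protein is immunoprecipitated (IP) together with the mRNA being read. The mice called cKO here, whose samples are titled Astro_Glut1_KO, were GLUT1 flox/flox. They carried a CreERT2 allele driven by the GLAST (Slc1a3) promoter, so that tamoxifen removes part of Slc2a1, the gene of the glucose transporter GLUT1. The mice called control here, whose samples are titled WT, carried the same GLAST CreERT2 allele without a floxed Slc2a1. Both genotypes received the tag and tamoxifen. The labels give all the sampled mice as male, of strain C57BL/6. The tag, EGFP fused to ribosomal protein L10a, came from a Cre-dependent adeno-associated virus with an hGFAP promoter, injected 7 days before tamoxifen. The mice were 8 to 10 weeks old when they received tamoxifen on 5 consecutive days, and cortical RNA was collected after a further 60 days. GLAST and hGFAP promoters can also be active outside cortical astrocytes, and the tag marks only cells that were both infected and recombined. The comparison rests on 3 control IP and 4 cKO IP libraries, which the study's source data name sample by sample as AstroTRAP_11, 15 and 19 and AstroTRAP_1, 5, 9 and 17. The labels number the IP samples within each genotype, but which number belongs to which of these names is not given.

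Each cytosolic ribosome joins a large and a small subunit, and each subunit is built from ribosomal RNA and one copy of most of these proteins, so their genes are expressed together in every growing or protein-making cell. Many of their mRNAs begin with a run of pyrimidines, the 5′ terminal oligopyrimidine (TOP) motif, through which the mTORC1 kinase and the RNA-binding protein Larp1 set how strongly they are translated. TRAP captures mRNA on ribosomes, so in such data these genes are both the product that is sequenced and relatives of the bait. RNA from an IP is a bulk measurement, in which fewer cells carrying the tag and less RNA per cell cannot be told apart.

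The start of the transcript is shown first, because the TOP motif is the feature these genes are known to share and the name rule did not use it. RefSeq starts on GRCm38.p6 were matched for 62 of the 82 genes. The window ran from 15 bases before to 15 bases from the start on, on the strand that reads like the mRNA. In it, 27 of the 62 (43.5%) held an unbroken run of at least 8 C or T. Such a run was held by 13.9% of all 27025 genes with a start in the same RefSeq table. Capitals below mark that run. The first 4 genes have it, and the last 4 are shown because the expression values turn on them or on their paralogue and their windows hold no run of that length.

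Rps6 (chr4:86857353-86857382, minus strand): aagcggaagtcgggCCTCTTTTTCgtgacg
Rpl34 (chr3:130730323-130730352, minus strand): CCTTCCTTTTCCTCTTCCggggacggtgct
Rpl38 (chr11:114668565-114668594, plus strand): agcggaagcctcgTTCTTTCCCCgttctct
Rpl22l1 (chr3:28805493-28805522, plus strand): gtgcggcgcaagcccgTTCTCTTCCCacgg
Rpl22 (chr4:152324421-152324450, plus strand): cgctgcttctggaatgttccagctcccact
Rpl11 (chr4:136053379-136053408, minus strand): ctgacccataaggccacggggccggaagtc
Rps12 (chr10:23787195-23787224, minus strand): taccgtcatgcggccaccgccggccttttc
Rpl10a (chr17:28328456-28328485, plus strand): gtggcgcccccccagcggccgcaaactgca

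The second listed start of Rpl34, of Rpl22 and of Rpl10a is not shown. The letters CCGGAAG on either strand, the core read by ETS family factors such as Gabpa, stood in the longer RefSeq promoter window of 25 of the 62 genes (40.3%) against 9.93% of all genes, and the windows of Rps6, Rpl34, Rpl38 and Rpl11 were among them. On the reverse strand these letters read CTTCCGG, whose first 5 can also form part of a pyrimidine run. The RefSeq start is a database position and was not measured in these libraries, so a window without a run says only that these letters are not next to that position. A gene with several listed starts was counted if any of them had the run. A counted run need not begin at the start, and that of Rpl13 lies wholly before it. The 7 C or T that end the Rps12 window may continue beyond its edge.

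Between 1.67% and 2.28% of all reads in a library fell on the 82 genes. The share was 1.92%, 1.67% and 2.13% in the control libraries AstroTRAP_11, 15 and 19, and 1.78%, 1.93%, 1.85% and 2.28% in the cKO libraries AstroTRAP_1, 5, 9 and 17. The genotypes overlapped, with the lowest share in a control library and the highest in a cKO library. The mean was 1.91% ± 0.233 (SD, n = 3) in control IP and 1.96% ± 0.221 (SD, n = 4) in cKO IP, so the difference of 0.050 percentage points was smaller than the spread within either genotype. It became -0.069 without AstroTRAP_15 and 0.163 without AstroTRAP_19. Without AstroTRAP_17 it was -0.056.

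**Figure D1:**
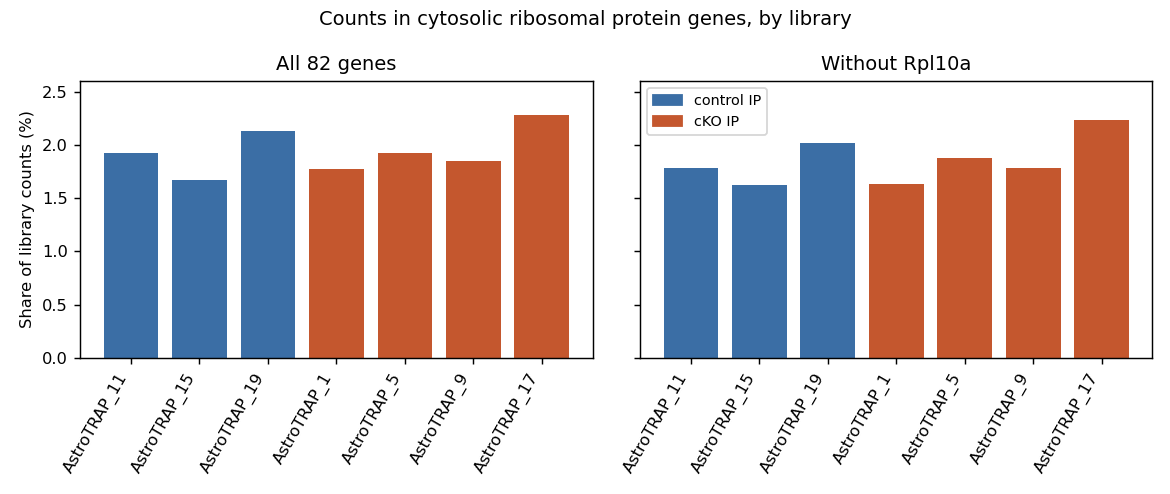
Share of each library's deposited counts (vertical axis, percent, from 0) that fell on the 82 cytosolic ribosomal protein genes (left) and on the same genes without Rpl10a (right), 1 bar per library, blue for control IP and orange for cKO IP. AstroTRAP_17 is highest and AstroTRAP_15 lowest in both panels, at 2.28% and 1.67% with Rpl10a and 2.23% and 1.62% without it.

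The libraries differed in more than genotype. Total counts ran from 12570309 in AstroTRAP_17 to 40734343 in AstroTRAP_11, and the mean total was lower in cKO IP than in control IP. Slc2a1 lay between 56.4 and 61.9 CPM (counts relative to library size, scaled by the TMM method) in all 7 libraries. It was not lower in cKO IP beyond its error (log2 fold change -0.013, standard error 0.12). Its deposited count is 1 sum per gene, and the deleted exons could not be read apart from the others. This count therefore does not check the labels, and why it did not fall in cKO IP was not tested. The 8 astrocyte markers were found in every library and summed to 28517 to 56013 CPM, against 2393 to 3481 CPM for 8 neuronal, 459 to 872 for 7 oligodendrocyte, 41.2 to 81.1 for 6 microglial and 14.3 to 40.6 for 6 endothelial markers. The 3 libraries in which the ribosomal protein genes took their highest shares, AstroTRAP_17, 19 and 5, also had the 3 lowest astrocyte sums, at 28517, 28775 and 29656 CPM, and the 3 highest neuronal sums. Mitochondrially encoded genes were likewise highest there, at 9251, 10095 and 12638 CPM against 919 to 4025 CPM in the other libraries. The part of depth, mitochondrial reads or other cell types in the ribosomal protein share was not tested.

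No cytosolic ribosomal protein gene passed the test for a difference between cKO IP and control IP. After Benjamini-Hochberg adjustment over all 13296 genes tested, edgeR's quasi-likelihood test called 0 of the 80, where 0.0451% of all genes (6) were called, 0.0376% as higher and 0.00752% as lower in cKO IP. At an unadjusted p under 0.05, it was 1 of 80, Rpl11, against 2.58% of all genes. DESeq2 and edgeR's exact test also called 0 of the 80. The genotypes did not overlap for 2 of the 80, against 5.11% of all genes. These were Rpl11, lower in cKO IP as 2.76% of all genes were without overlap, and Rps27a, higher in cKO IP as 2.35% of all genes were.

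The changes were small on the log2 scale. The absolute log2 fold change was under 0.2 for 76 of the 80 genes, and the median standard error was 0.13. Differences of a similar size to that error were not detectable with these libraries, and larger ones could be missed. Rpl11, at -0.37 with a standard error of 0.11, was not called after adjustment. The middle 50% of the genes lay between 0.018 and 0.11. A positive value was found for 64 of the 80 (80% against 52.3% of all genes), and the median was 0.061, with 0.054 for the large and 0.081 for the small subunit, beside 0.012 over all genes tested and 0.0054 over 2770 other genes of like mean CPM. The upward lean depended on AstroTRAP_17 and AstroTRAP_15. Without AstroTRAP_17 the median was 0.0033 with 41 of 80 above 0, and without AstroTRAP_15 it was 0.021 with 49 above 0.

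**Figure D2:**
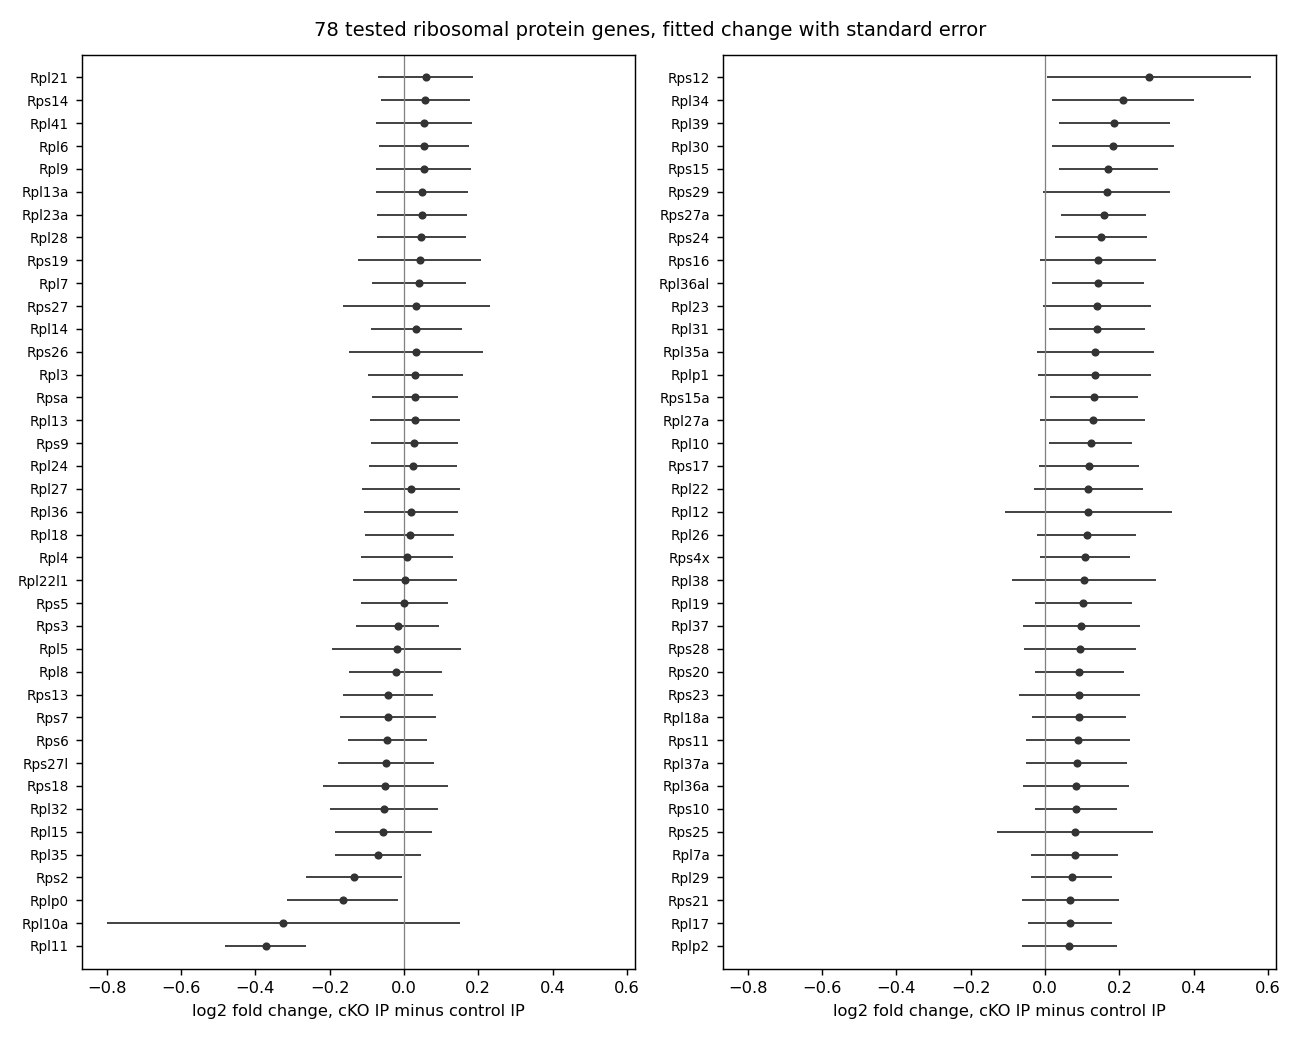
Log2 fold change of 78 of the 80 tested ribosomal protein genes, cKO IP minus control IP (horizontal axis; points), with the standard error from edgeR's quasi-likelihood fit (lines), sorted by size over both columns. Most points lie between -0.2 and 0.2, Rpl11 is the lowest at -0.37, and Rps12 is the highest at 0.28 with a standard error of 0.27; Rpl3l, at few counts and with a standard error of 1.40, and 1 gene that is not reported here are not drawn.

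AstroTRAP_17, a cKO library, gave the highest of the 7 levels for 50 of the 80 genes (62.5%, against 23.7% of all genes tested) and the lowest for 0 of them (against 27.7%). The control library AstroTRAP_15 gave the lowest level for 38 of the 80 (47.5%, against 12% of all genes). AstroTRAP_1 was highest for 16 (against 11.5%) and AstroTRAP_19 for 8 (against 11.5%). The median deviation of the 80 genes from their own mean over the libraries was 0.20 on the log2 scale in AstroTRAP_17 and -0.13 in AstroTRAP_15, and between -0.056 and 0.036 in the others. AstroTRAP_17 had the lowest total count of the 7, and the part of depth in this pattern was not tested.

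The excess in AstroTRAP_17 was not even over the genes. Rps12, a small subunit protein, had 25.3, 28.1 and 24.95 CPM in control IP and 24.7, 29.7, 21.3 and 51.5 CPM in cKO IP. The last value, from AstroTRAP_17, stood alone, and the other 3 cKO libraries lay around the controls. The fitted log2 fold change of Rps12 was 0.28 (standard error, SE, of 0.27, adjusted p = 0.9996 by edgeR's quasi-likelihood test), and it was -0.049 without AstroTRAP_17. The row Rps12-ps3, whose name marks it as a copy of Rps12, carried 18.2 to 30.6 CPM, and the fold change was 0.16 when its counts were added to those of Rps12. Rpl34, a large subunit protein, had 190.7, 171.0 and 223.4 CPM in control IP and 183.4, 222.9, 186.6 and 309.3 CPM in cKO IP, again with AstroTRAP_17 above all others. Rpl38, known for its part in the translation of selected developmental mRNAs, had 118.8, 107.5 and 151.1 CPM in control IP and 113.2, 137.4, 109.1 and 181.6 CPM in cKO IP. Both have a pyrimidine run at the start shown above, as does Rps6, which did not share the excess.

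Rps6, the small subunit protein phosphorylated by the S6 kinases below mTORC1, had the lowest within-genotype SD of the tested members after TMM scaling. It had 339.9, 335.9 and 349.1 CPM in control IP and 336.8, 332.4, 327.5 and 327.9 CPM in cKO IP. The 7 libraries spanned a ratio of only 1.07, and the genotypes overlapped (log2 fold change -0.045, standard error 0.11). Rps3, which sits at the mRNA entry of the small subunit, was next, with 370.4 to 418.2 CPM in control IP and 389.0 to 397.1 CPM in cKO IP.

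**Figure D3:**
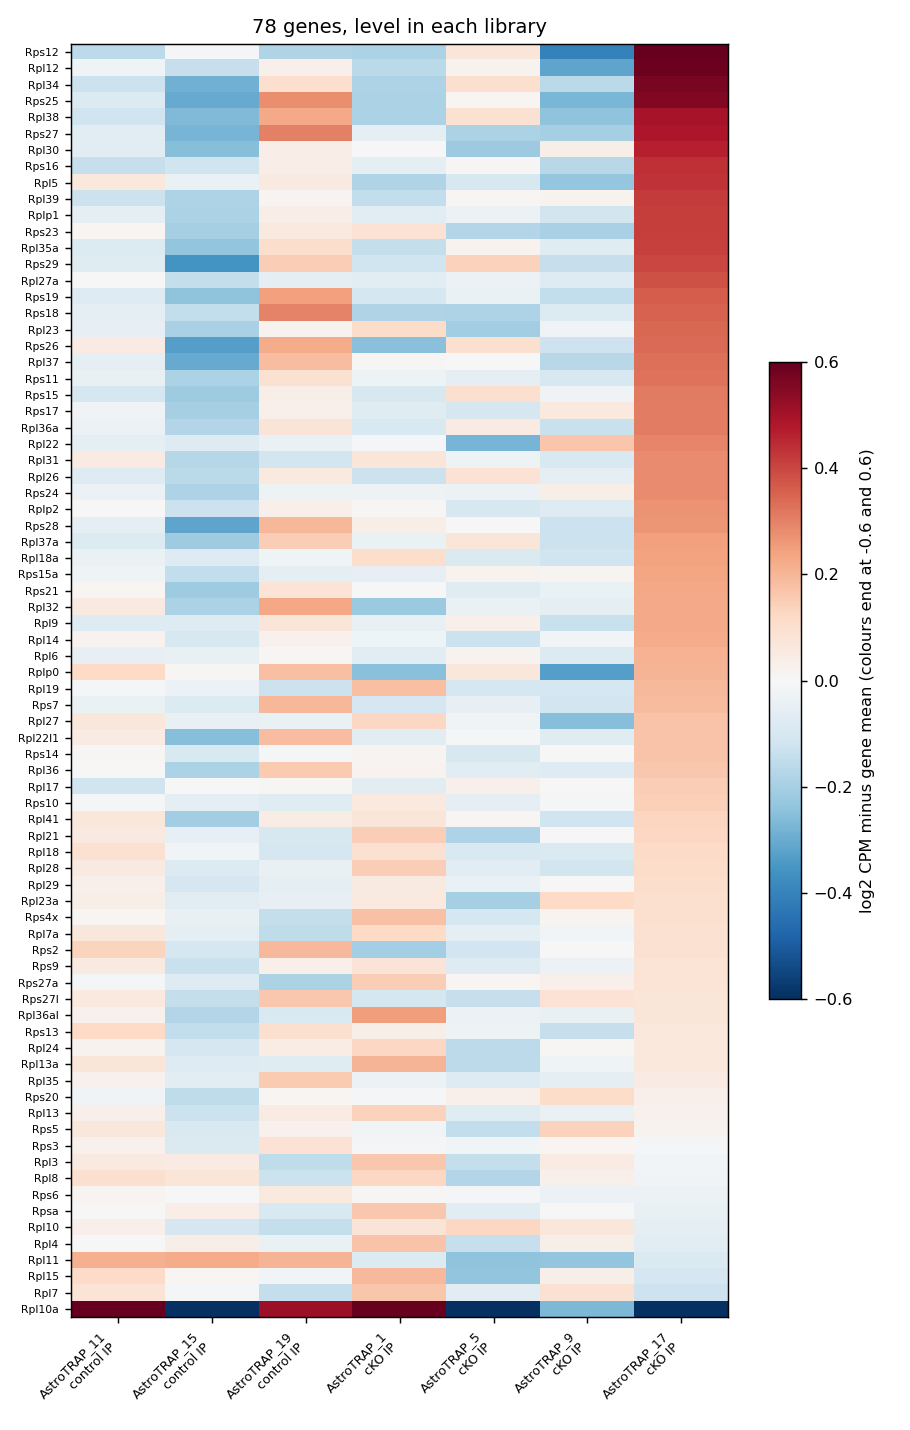
Level of 78 of the 80 tested ribosomal protein genes (rows, without Rpl3l and 1 gene that is not reported here, ordered by their value in AstroTRAP_17) in the 7 libraries (columns, control IP then cKO IP), as log2 CPM minus the gene's mean, red above and blue below it. The AstroTRAP_17 column is red for most genes and the AstroTRAP_15 column is mostly blue, while Rps6 and Rps3 are nearly white in every library and Rpl10a, in the bottom row, follows an order of its own.

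How the spread of the ribosomal protein genes between libraries of the same genotype compared with other genes depended on the scaling. With TMM, the median within-genotype SD of log2 CPM was 0.14 (quartiles 0.11 and 0.20) over the 80 genes, 0.33 over all genes tested and 0.18 over the 2770 genes of like mean CPM, and 55 of the 80 lay under that last value. With library size alone the medians were 0.22, 0.35 and 0.19, and 33 of the 80 lay under the median of the genes of like level. With TMM, the highest and lowest library differed by less than 1.5 times for 61 of the 80. The genes with the largest spread were Rpl3l and Rpl10a. Rpl3l, the striated muscle paralogue of Rpl3, rested on 48, 1 and 23 counts in control IP and 4, 0, 11 and 29 counts in cKO IP. Its counts are too few for its fold change of -0.13 (standard error 1.40) to say anything of a difference.

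Rpl10a was the member with the least stable level at high counts, and it is also the protein that carries the tag. It had 1408, 485.1 and 1093 CPM in control IP and 1660, 438.9, 634.9 and 444.7 CPM in cKO IP. High and low libraries occurred in both genotypes, and the extremes differed by 3.78 times. The log2 fold change was -0.32 (SE 0.47, adjusted p = 0.9996 by edgeR's quasi-likelihood test), and it ran from -0.98 to 0.0098 as single libraries were left out. Rpl10a took 2.10% to 8.14% of the counts on the 82 genes. The viral transgene also contains the L10a coding sequence, and in the deposited counts reads from the transgene and from the endogenous gene on chromosome 17 (28328471 to 28331033) cannot be told apart. The order of the libraries in Rpl10a was not that of the other members: AstroTRAP_1 and AstroTRAP_11 were highest, and AstroTRAP_17, highest for most members, was among the lowest 3.

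Rpl11 was the only member with an unadjusted p under 0.05. It encodes a large subunit protein that, with Rpl5 and the 5S RNA, can bind and inhibit Mdm2 when ribosome assembly is disturbed. Rpl11 had 241.4, 242.5 and 239.5 CPM in control IP and 196.8, 176.2, 176.6 and 196.0 CPM in cKO IP. Every cKO library lay below every control library, and the controls were within 3 CPM of each other. The log2 fold change was -0.37 (standard error 0.11, unadjusted p = 0.00602), and the adjusted p was 0.9996 by edgeR's quasi-likelihood test and 0.258 by DESeq2. It lay between -0.40 and -0.35 as each library was left out in turn.

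The table holds a row, Gm10036, that RefSeq lists as a pseudogene and that was looked at after its values had been seen. Its level was 0.356, 0.872 and 0.144 CPM in control IP and 21.97, 20.25, 21.02 and 21.19 CPM in cKO IP. It differed between the genotypes without overlap (log2 fold change 5.49, standard error 0.47, adjusted p = 8.19e-04 by edgeR's quasi-likelihood test). Kallisto divides reads between transcripts that share sequence, and whether Gm10036 shares sequence with Rpl11 was not determined here. With its counts added to those of Rpl11, the sum was 241.7, 243.3 and 239.7 CPM in control IP and 218.7, 196.4, 197.6 and 217.2 CPM in cKO IP. The genotypes still did not overlap, the log2 fold change was -0.22 (standard error 0.11) and the unadjusted p was 0.0684.

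Rpl11 lies on chromosome 4 from 136049354 to 136053393 (GRCm38.p6), 16.9 Mb from Slc2a1, the floxed gene. The 82 genes are spread over 19 chromosomes. Other members on chromosome 4 were measured in the same fit. Rps6 and Rpl22, at 32.3 and 33.2 Mb, had log2 fold changes of -0.045 and 0.12, and Rps20, at 115 Mb, had 0.093. The part of flanking sequence carried along with the floxed allele was not tested.

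**Figure D4:**
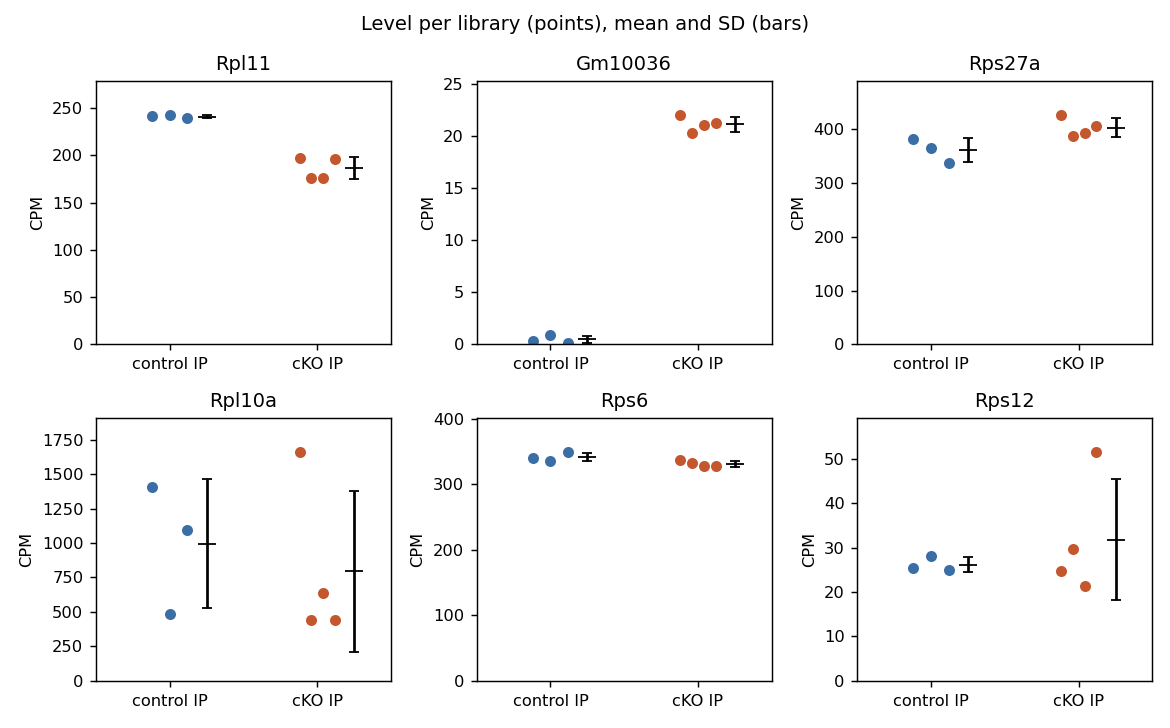
CPM (vertical axes, from 0) of Rpl11, Gm10036, Rps27a, Rpl10a, Rps6 and Rps12, 1 point per library, in control IP (blue, 3 libraries) and cKO IP (orange, 4 libraries), with mean and SD as bars. The genotypes separate for Rpl11, Gm10036 and Rps27a and overlap in the other panels; single libraries stand apart in Rps12 (51.5 CPM) and Rpl10a (1660 CPM).

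Rps27a, which is made as a fusion with ubiquitin, was the other member without overlap. It had 383.0, 364.4 and 337.6 CPM in control IP and 426.1, 387.8, 393.1 and 406.7 CPM in cKO IP. The gap between the highest control and the lowest cKO library was under 5 CPM, and the log2 fold change of 0.16 (SE 0.11, adjusted p = 0.9996 by edgeR's quasi-likelihood test) was under 2 standard errors.

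Rpl5, the partner of Rpl11 in the 5S particle, had 54.6, 50.7 and 54.1 CPM in control IP and 46.2, 48.8, 44.5 and 70.6 CPM in cKO IP. The first 3 cKO libraries lay below all controls and AstroTRAP_17 above them, and the fitted log2 fold change was -0.020 (standard error 0.17). Without AstroTRAP_17 it was -0.19. Mdm2, the ubiquitin ligase that this particle inhibits, had 36.0 ± 3.66 CPM (SD, n = 3) in control IP and 28.4 ± 8.91 CPM (SD, n = 4) in cKO IP, a log2 fold change of -0.34 with a standard error of 0.24. Of the 4 genes of the Mdm2 and p53 axis, 0 were called, against 0.0451% of all genes. Cdkn1a, the cell cycle inhibitor induced by p53, had -0.56 (standard error 0.22, unadjusted p = 0.0280, adjusted p = 0.9996 by edgeR's quasi-likelihood test). It was the only 1 of the 4 with an unadjusted p under 0.05, against 2.58% of all genes. Cdkn1a overlapped between genotypes, with 73.0 to 91.6 CPM in control IP and 36.4 to 75.2 CPM in cKO IP. Mdm2 overlapped as well, with 32.7 to 39.9 CPM in control IP and 17.5 to 37.0 CPM in cKO IP. AstroTRAP_17 was the lowest library for both genes.

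The 3 stalk proteins, Rplp0, Rplp1 and Rplp2, recruit elongation factors to the large subunit. Rplp0 had 355.8, 329.4 and 371.6 CPM in control IP and 275.6, 343.0, 260.9 and 377.2 CPM in cKO IP. Its genotypes overlapped, with AstroTRAP_1 and AstroTRAP_9 low and AstroTRAP_17 highest (log2 fold change -0.17, standard error 0.15). Rplp1 was between 281.1 and 329.9 CPM in control IP and at 307.5, 312.8, 297.4 and 427.8 CPM in cKO IP, and Rplp2 between 193.0 and 215.3 CPM in control IP and 197.2 and 254.6 CPM in cKO IP. Their fold changes of 0.13 and 0.065 were positive and within the standard errors of 0.15 and 0.13, and both turned negative, at -0.0026 and -0.024, without AstroTRAP_17.

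The other genes at the ends of the range also overlapped between genotypes. Rps2, at the mRNA entry of the small subunit, had a value of -0.14 ± 0.13 (log2 fold change ± SE). Rpl34, Rpl39 and Rpl30 of the large subunit had 0.21, 0.19 and 0.18, with standard errors of 0.19, 0.15 and 0.17, and in all 3 AstroTRAP_17 was the highest library. Without AstroTRAP_17 the values were 0.020, 0.059 and 0.034. Rpsa, which is also known as the laminin receptor, had 101.6 ± 4.85 CPM (SD, n = 3) in control IP and 103.8 ± 7.53 CPM (SD, n = 4) in cKO IP. Rpl41, the smallest ribosomal protein, had 501.7 ± 52.1 CPM in control IP and 520.9 ± 37.6 CPM in cKO IP.

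The 5 members of highest mean CPM were Rpl10a, Rpl3, Rpl4, Rpl13 and Rpl19, all of the large subunit. CPM is not corrected for transcript length, so this is an order of reads and not of mRNA copies. Rpl3, at the peptidyl transferase centre, had 608.3 ± 48.3 CPM in control IP and 621.5 ± 55.0 CPM in cKO IP. Rpl4 had 609.3 ± 15.5 and 612.7 ± 57.2 CPM, Rpl13 had 596.1 ± 39.9 and 608.6 ± 40.0 CPM, and Rpl19 had 544.5 ± 23.9 and 585.1 ± 67.5 CPM (SD, n = 3 control and n = 4 cKO). In all 4 the genotypes overlapped, and the log2 fold changes were between 0.0080 (Rpl4) and 0.10 (Rpl19) with standard errors of 0.12 to 0.13.

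Several ribosomal proteins have a paralogue that can take their place in the ribosome. Rpl22l1, the paralogue of Rpl22, had between 0.789 and 1.12 times the CPM of Rpl22 in the same library, with overlapping genotypes (0.970 ± 0.134 in control IP, 0.913 ± 0.143 in cKO IP). The ratio of Rps27l, a paralogue of Rps27 induced by p53, to Rps27 was 0.286 ± 0.0299 in control IP and 0.275 ± 0.0535 in cKO IP, with the lowest of the 7 values, 0.208, in AstroTRAP_17, where Rps27 reached 427.8 CPM. Rpl36al stood at 1.52 ± 0.121 times Rpl36a in control IP and 1.61 ± 0.280 times in cKO IP. These ratios are of reads per gene and are compared between libraries only. Rps4x, the X-linked gene of this small subunit protein, had a value of 0.11 ± 0.12 (log2 fold change ± SE), and Rpl10, also on chromosome X, had 0.12 (standard error 0.11).

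The 2 members that could not be tested are paralogues known from the testis. Rpl10l had 0 counts in all 7 libraries, which allows up to 0.0762 CPM in the deepest and 0.222 CPM in the shallowest library at 3 counts. Rpl39l had 2 counts in AstroTRAP_19, 3 in AstroTRAP_1 and 0 in the other libraries. Both are at or below the level that 3 counts give, and no difference was detectable.

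The genes around the ribosome were read in the same fit. Rps3a1 and Fau, small subunit components whose symbols fall outside the name rule, had log2 fold changes of -0.019 and 0.061 with SE of 0.12 and 0.17, and neither was called. Of 40 initiation and elongation factors 0 were called in either direction, with a median of 0.015 and 21 above 0. Eef1a1, which brings aminoacyl-tRNA to the ribosome and is itself a TOP mRNA, had 1888 ± 245.4 CPM (SD, n = 3) in control IP and 1946 ± 343.4 CPM (SD, n = 4) in cKO IP. Eef2, the translocation factor, had 573.8 ± 98.7 and 612.5 ± 91.1 CPM.

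The factor with the lowest value was Eif3k, a subunit of initiation factor eIF3. It had 141.9, 150.4 and 140.1 CPM in control IP and 94.3, 108.2, 111.3 and 99.3 CPM in cKO IP. All cKO libraries lay below all controls, as they did for 2.76% of all genes tested. The log2 fold change was -0.48 (standard error 0.11, unadjusted p = 0.00158), but the adjusted p was 0.9996 by edgeR's quasi-likelihood test. Eif3k was the only 1 of the 40 with an unadjusted p under 0.05, against 2.58% of all genes. The highest value was 0.47 (SE 0.47) for Eef1a2, the neuronal and muscle form of Eef1a1.

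Of 22 genes of mTORC1 signalling to translation 0 were called, with a median of 0.038 and 12 above 0. An unadjusted p under 0.05 was found for 2 of the 22, both higher in cKO IP, against 2.58% of all genes. Mtor, the kinase itself, had 16.9, 20.8 and 19.9 CPM in control IP and 26.2, 26.9, 23.0 and 23.9 CPM in cKO IP, without overlap (log2 fold change 0.38, standard error 0.17, unadjusted p = 0.0474). Eif4ebp2, a repressor of cap-dependent initiation that mTORC1 switches off, had 23.1, 22.6 and 22.9 CPM in control IP and 29.2, 32.2, 26.1 and 41.4 CPM in cKO IP, also without overlap (0.49, standard error 0.18, unadjusted p = 0.0227). The adjusted p was 0.9996 for both by edgeR's quasi-likelihood test, and 2.35% of all genes tested were higher in cKO IP without overlap. The lowest value of the list was -0.42 (SE 0.25) for Rraga, a GTPase that brings mTORC1 to the lysosome. The highest was 0.67 (SE 0.33) for Rps6ka3, a ribosomal S6 kinase of the RSK family. Rps6ka3 did not overlap either, with 4.28 to 5.06 CPM in control IP and 5.61 to 9.93 CPM in cKO IP. Its unadjusted p was 0.0683 by edgeR's quasi-likelihood test. AstroTRAP_17 was the highest library for both Eif4ebp2 and Rps6ka3. Larp1, which binds TOP mRNAs, had a value of -0.099 ± 0.25 (log2 fold change ± SE), and Rps6kb1, an S6 kinase, had 0.14 (standard error 0.25).

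Among 18 genes of ribosomal protein transcription and rRNA synthesis 0 were called and 0 had an unadjusted p under 0.05 by edgeR's quasi-likelihood test. Their values lay between -0.59 for Polr1a, the largest subunit of RNA polymerase I, and 0.37 for Taf1d, a part of its initiation complex. The 77 mitochondrial ribosomal protein genes, which build the separate ribosome of the mitochondrion, likewise had 0 called and 0 at an unadjusted p under 0.05. Their median log2 fold change was 0.018 with 43 above 0, and they ranged from -0.26 (Mrps34) to 0.50 (Mrps26). Over all genes tested, 0.0451% were called and 2.58% had an unadjusted p under 0.05 by edgeR's quasi-likelihood test. Beside those shares, counts of 0 in lists this short say little. No gene of any of these lists was called by DESeq2 or by edgeR's exact test.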

How the data were processed

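RNA of cortical IP and input samples was sequenced as 100 nt reads after Smart-seq2 library preparation. The authors trimmed reads with cutadapt 1.15, assigned them to GENCODE vM17 transcripts (GRCm38) with kallisto 0.44.0 and deposited estimated counts summed per gene symbol, without normalization for depth or length. Tool versions are those of the submitters' processing notes.

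The table has 18 columns. Only 7, which the study's source data name as control IP or cKO IP, were used. The other 11 were not used in any step, so IP was not compared with input here. Labels list 5 control IP samples, so 2 were not analysed here. The paper states that it left out a sample with very few reads and IP samples with high neuronal gene expression. Whether the 2 control IP samples were among these is not given. The neuronal marker sums above are of libraries that the study kept.

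Counts were rounded, filterByExpr removed genes of low count (13296 of 21923 kept), and libraries were scaled by TMM. The model held genotype alone and was fitted in R 4.3.3 with edgeR 4.0.16, whose quasi-likelihood test was used with the Benjamini-Hochberg procedure over all genes (threshold 0.05). Standard errors were taken from its F statistic. Log2 CPM for the spread used a prior count of 2. Alternatives included edgeR's exact test, which the study used, and DESeq2 1.42.0. The test was tried on simulated data with known changes, all larger than those fitted for the members. Its power for small changes was therefore not examined. Totals per library ran from 12570309 to 40734343. At these depths 3 counts equal 0.0762 to 0.222 CPM, which covers counting error only. No 2 libraries of a genotype agreed within counting noise (lowest chi-square per degree of freedom 27.9).

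The members, the pathway lists and the rule for named genes were chosen with earlier results of these data known. Named genes were all called members, the 4 highest and 4 lowest fold changes, the 5 of highest mean CPM, members not tested, paralogue pairs, a list of role genes, and the 2 highest and 2 lowest in spread. Genes of the pathway lists were named as list extremes, at an unadjusted p under 0.05, or for their role. Rps20 was named for its chromosome. Of the microglial markers 6 of 7 symbols matched. Values of some genes are not reported here, and the plots of tested members leave out 1 of them as well as Rpl3l. Positions and start windows are from RefSeq (GRCm38.p6).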

Additional observations from a re-analysis of the deposited data

Results flagged for a closer look

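In the cKO IP group of 4, 4 values stood apart from the other 3 by Dixon's gap ratio. For independent groups not picked by their values, chance gives such a value in about 1 in 20, which is 1.65 of 33 groups. The 33 groups of values examined do not meet this. Some genes were picked for extreme fold change or spread, and all share the same 4 libraries. The 4 flags therefore cannot be weighed against 1.65. Rpl10a reached 1660 CPM in AstroTRAP_1, where the next cKO library had 634.9 CPM. Rpl39l had 0.185 CPM in AstroTRAP_1, which is 3 counts, and 0 in the other 3 cKO libraries. With 0 in those, any count in AstroTRAP_1 would have been flagged. Rplp1 had 427.8 CPM in AstroTRAP_17 against at most 312.8 CPM in the others. Rpl5 had 70.6 CPM in AstroTRAP_17 against at most 48.8 CPM in the others.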

How the results depend on the processing

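The number of called ribosomal protein genes was 0 in all 16 alternatives run (other tests, scalings and filters, added -ps copies, each library left out), as was the number over the pathway lists. The median log2 fold change stayed positive, between 0.0033 and 0.097, which are also its lowest and highest values with 1 library left out. The difference in read share ran from -0.069 to 0.163 percentage points with 1 library left out. The median within-genotype SD was 0.22 with library size alone in place of TMM, and 0.11 to 0.15 with 1 library left out. Of 481 alternative fits of the 30 named and tested genes, 447 kept direction and side of the threshold and 34 turned direction, none past the threshold, and 13 genes had no such turn. Upper quartile scaling turned Rpl4 to -0.0045 and Rpl22l1 to -0.010, library size alone turned Rpl5 to 0.0012, and no low-count filter turned Rpl22l1 to -0.0018; the cause was not tested. The other turns came with 1 library left out. These gave ranges of -0.98 to 0.0098 for Rpl10a, -1.59 to 0.35 for Rpl3l, -0.15 to 0.21 for Rps27, -0.025 to 0.061 for Rpl13, -0.11 to 0.10 for Rpl22l1, -0.031 to 0.10 for Rpl41, -0.036 to 0.080 for Rpl3, -0.051 to 0.053 for Rpl4, -0.13 to 0.019 for Rps27l, -0.021 to 0.059 for Rpsa, -0.064 to 0.021 for Rps3, -0.19 to 0.044 for Rpl5, -0.049 to 0.42 for Rps12, -0.016 to 0.14 for Rpl36a, -0.0026 to 0.19 for Rplp1, -0.024 to 0.11 for Rplp2 and -0.068 to 0.25 for Rpl38. Adding Gm10036 to Rpl11 and leaving out Rpl10a were chosen after seeing the data. Without Rpl10a the median was 0.065 and the difference in share 0.074 percentage points. No paired analysis was possible because the columns carry no replicate numbers. With 3 and 4 libraries, and the shallowest of them in cKO IP, changes near the median standard error of 0.13 were not detectable. Larger ones could be missed as well, since Rpl11 at -0.37 and Eif3k at -0.48 were not called after adjustment.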
